A study of Homo sapiens with 12 samples.

Results

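The comparison described here is that of a methylated (M) with an unmethylated (U) DNA oligonucleotide in BT-20 cells, an epithelial breast cancer cell line. It rests on 4 of the 12 arrays of the series, chosen by the cell line and treatment in their labels, with 2 arrays for M and 2 for U. All 4 cultures were given 200 nM of a double-stranded oligonucleotide of 30 bases for 24 h, carried by 3 µg of the liposomal reagent DOTAP per µg of DNA. M and U have the same sequence, which has a GC content of 76.7% and 4 CpG dinucleotides on each strand; all CpG cytosines are methylated in M and none in U. The arrays are numbered as set 1 and set 2, and the array names in the labels bear a different date for each set, so M was compared with U within each set. BT-20 is 1 cell line, and no array of untreated cells or of DOTAP alone was used here. The same comparison in the other line, Hs578T (4 arrays), and the lone BT-20 arrays of the single-stranded CpG oligodeoxynucleotide ODN2006 and of its control (1 array each, same dose, time and carrier) serve below only for comparison.

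Cells sense foreign DNA through receptors such as TLR9, which recognises unmethylated CpG motifs in endosomes, and through cytosolic sensors that lead to interferon. A separate pathway, the integrated stress response, reacts to amino acid shortage, unfolded protein and other stress. It slows translation and favours the transcription factor ATF4, which with DDIT3 (CHOP), ATF3 and CEBPG acts on genes for amino acid synthesis, amino acid uptake and tRNA charging. CHAC1, the gene in the title of the series, encodes an enzyme that degrades glutathione and is a known target of this pathway.

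The arrays gave log2 GCRMA values, in which genes that are not expressed lie at about 2 to 4. Most markers went with the label of the cells. CDH1 was at 12.98 to 13.33, EPCAM at 13.23 to 13.55 and KRT19 at 13.15 to 14.00. Of the mesenchymal markers ZEB1 (2.13 to 2.17), COL1A2, COL3A1, CDH2, SPARC and FBN1 reached at most 4.03. VIM (6.84 to 7.13) and COL1A1 (5.90 to 6.51) were present at moderate levels. In the longer list of 24 mesenchymal markers 18 had a mean under 5. CALD1, FN1, COL5A1 and TAGLN were high, with means of 12.18, 11.82, 10.37 and 10.19 over the 4 arrays. Of the hormone receptors, PGR was at 2.32 to 2.35 and ESR1 at 3.19 to 5.64. The arrays of set 1 lay apart from the other BT-20 arrays, M further than U. Across the 9349 genes tested the correlation of M of set 1 with the other 5 BT-20 arrays was 0.967 to 0.988. It was 0.979 to 0.995 among those 5 arrays, which also span the sets. U of set 1 correlated at 0.979 to 0.986 with the 4 arrays dated as set 2, against 0.992 to 0.995 among these. With M of set 1 it correlated at 0.988. Values in set 2 do not use the M array of set 1. The number of arrays limits the precision, and n is 2 in each group throughout. RNA came from whole cultures, so fewer cells of a kind and less RNA per cell cannot be told apart.

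No gene passed the test. Of 9349 genes with a mean log2 value of at least 5 over the 4 arrays, 0 were higher and 0 lower with M at an adjusted p under 0.05 (limma, Benjamini-Hochberg; percent of genes called 0.0% in each direction), and the smallest adjusted p was 0.9997. At an unadjusted p under 0.05 there were 56 higher genes (0.599%) and 52 lower genes (0.556%). With the set as a block these counts were 218 and 194, and 0 genes passed after adjustment. Differences are therefore given below as values in each set, on the log2 scale, and none of them is a call. Unadjusted p and SE below are those of the fit without the block unless stated, so they do not use the pairing by set. Counts per list with the block are not given.

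The sets had little in common across all genes. M minus U had a standard deviation over genes of 0.32 in set 1 and 0.21 in set 2, with medians of 0.00 and -0.01. The 2 sets of differences correlated across genes with r = 0.0403 and rho = 0.0031, where genes are not independent replicates. The direction was the same in both sets for 49.4% of the genes, 23.5% higher in both and 25.9% lower in both. A difference of at least 0.5 was seen for 373 higher (3.99%) and 493 lower genes (5.27%) in set 1, and for 179 (1.91%) and 120 (1.28%) in set 2. It was seen in both sets for 36 higher genes (0.385% of those tested) and 15 lower genes (0.16%), and in opposite directions for 12 genes that were higher in set 1 and 35 that were lower in set 1. Among the 36 higher genes, 8 belong to the lists of stress regulators and of serine, asparagine and proline synthesis. Among the 15 lower genes 0 do. These lists have 16 and 11 members among the 9349 genes tested. The lists were chosen with earlier results of these data known, so the count of 8 is no independent test. Of the 36, 7 passed the filter only through their M arrays (mean of U under 5), and of the 15, 8 only through their U arrays, so for these a difference had to be present.

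**Figure D1:**
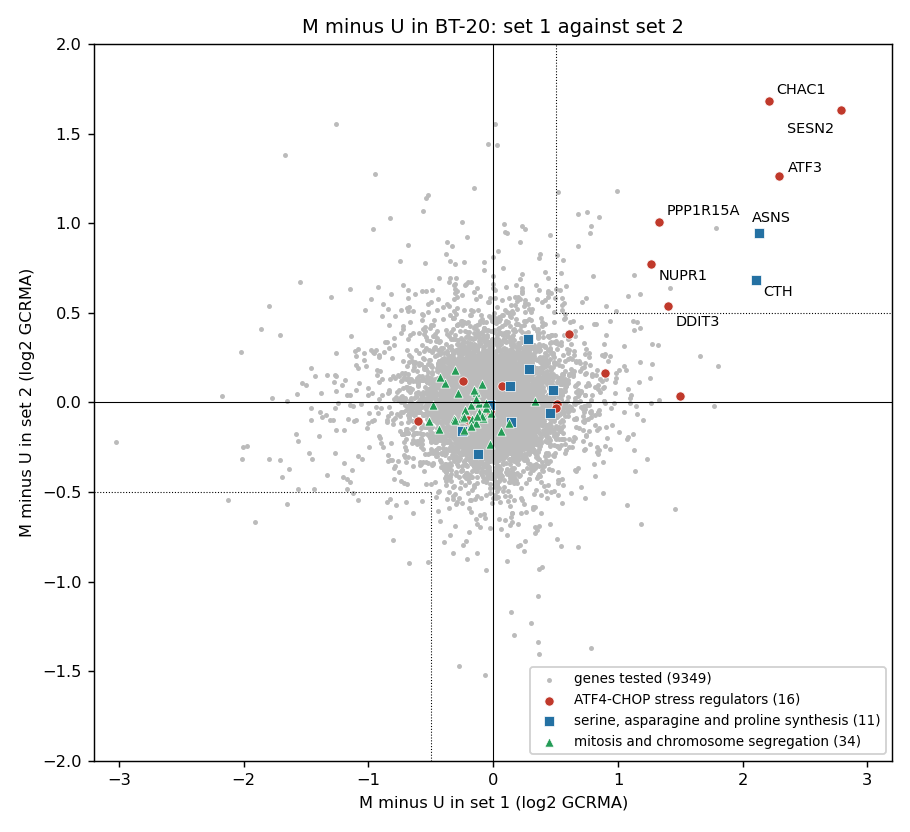
M minus U (log2 GCRMA) of each of 9349 genes in BT-20, set 1 on the horizontal and set 2 on the vertical axis, with dotted lines at a difference of 0.5 in both sets. Most genes (grey) form a round cloud, while CHAC1, SESN2, ATF3, PPP1R15A, NUPR1, DDIT3, ASNS and CTH (red and blue, named) lie at the upper right and the mitosis genes (green) lie close to 0, mostly at the lower left.

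The stress regulators were the list that stood furthest from 0 in set 1, and their leading genes were higher with M in both sets. Of the 19 genes of the list, 16 passed the filter on dim genes. Their median difference was 0.75 in set 1 and 0.14 in set 2, against 0.00 and -0.01 over all genes tested. M was higher in both sets for 10 of them (62.5%, against 23.5% of all genes) and lower in both for 3. For 6 of them the difference was at least 0.5 in both sets (37.5%, against 0.385%), and the same 6 had an unadjusted p under 0.05. Over all genes an unadjusted p under 0.05 in the higher direction was reached by 0.599%. Of the 6, CHAC1 passed the filter only through its M arrays (mean of U 4.59), and the counts describe the members tested and are no test of the list. The median of the mean differences was 0.51, and it ran from 0.13 without the M array of set 1 to 0.82 without that of set 2. With the probe sets of each gene averaged it was 0.24, and with the dim members included 0.25.

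CHAC1 was at 7.14 with M and 4.92 with U within set 1, and at 5.94 and 4.26 in set 2. Both M arrays lay above both U arrays, although M of set 2 was closer to U of set 1 than to M of set 1. The mean difference was 1.95 ± 0.48 (SE), a 3.86-fold ratio, and the exact two-sided permutation test over the 4 arrays gave p = 0.333, the smallest that 2 against 2 arrays allow. With the set as a block the SE of the difference was 0.17.

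For 8 of the 16 regulators both M arrays lay above both U arrays, as for 9.8% of all genes. SESN2, a stress-inducible regulator that restrains the amino acid sensor mTORC1, was at 7.60 with M and 4.82 with U within set 1, and at 6.89 and 5.26 in set 2. The difference of 2.79 in set 1 was the highest of all genes tested in that set, and its mean was 2.21 ± 0.31 (SE), a 4.63-fold ratio. ATF3, a transcription factor of the stress response, was at 8.97 with M and 6.68 with U within set 1, and at 7.93 and 6.66 in set 2. The U arrays were alike and the M arrays were apart, both above U. The mean difference of ATF3 was 1.78 ± 0.37 (SE).

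PPP1R15A (GADD34), the phosphatase subunit that ends the translational block, was at 9.22 and 7.89 in set 1 and at 8.35 and 7.35 in set 2, with M first. A second probe set of PPP1R15A gave differences of 1.80 and 1.28, next to 1.33 and 1.00 for the probe set used. NUPR1, a stress-induced chromatin protein, was at 9.26 and 8.0 in set 1 and at 8.52 and 7.74 in set 2. DDIT3, the transcription factor CHOP, was at 7.66 and 6.26 in set 1 and at 7.19 and 6.65 in set 2. In each of these genes both M arrays were above both U arrays, and the difference was larger in set 1.

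The other members of the list varied. ATF4 itself was higher by 0.52 in set 1, with a difference of -0.01 in set 2. STC2, a secreted glycoprotein, differed by 1.49 and 0.03, CEBPG, a partner of ATF4, by 0.90 and 0.16, and TRIB3, a pseudokinase that feeds back on ATF4, by 0.51 and -0.03. DDIT4, an inhibitor of mTORC1, was higher in both sets, by 0.61 and 0.38. VLDLR (-0.60 and -0.11) and CEBPB (-0.20 and -0.10) were lower in both. GDF15, FGF21 and ADM2, which are also known targets of ATF4, did not pass the filter, and lay at 2.35 to 2.64 in all 4 arrays.

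**Figure D2:**
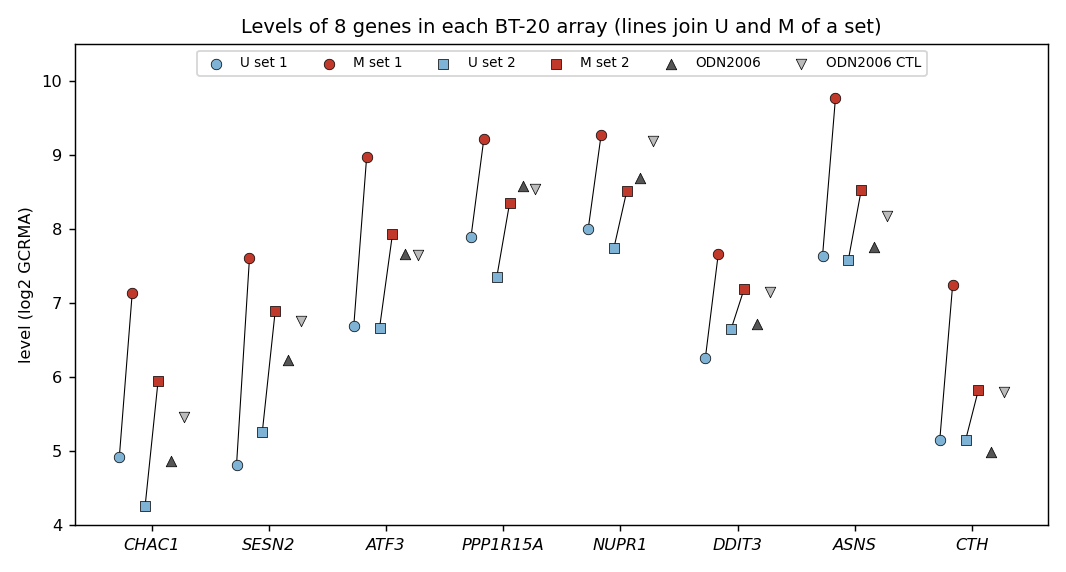
Level (log2 GCRMA) of 8 genes in the 6 BT-20 arrays, U in blue and M in red, circles for set 1 and squares for set 2, and triangles for the lone ODN2006 and ODN2006 CTL arrays. Lines join U and M of a set: each runs upwards, more steeply in set 1, and for CHAC1 from 4.92 to 7.14 and from 4.26 to 5.94.

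Promoters of these genes can carry a composite element bound by ATF4 with a C/EBP partner, of which TGATGNAA is the core. These letters were searched on both strands from 250 bases before to 50 bases after the start of each gene in RefSeq entries of GRCh38.p14. They were present in 3.62% of 35116 entries and in 2.63% of the 7826 tested genes with an entry. Of the 36 genes higher by 0.5 in both sets, 27 had an entry and 4 of these held the letters (14.8%), namely ATF3, ASNS, CHAC1 and RNF182. The letters were more frequent in lists whose medians were above 0 in set 1 alone, with 5 of 11 amino acid transporters (45.5%) and 7 of 16 tRNA synthetases (43.8%), and they were in 5 of 18 stress regulators (27.8%). SESN2, PPP1R15A and DDIT3 had no match in this window, which says only that these letters are not there. JDP2, CEBPG and FGF21 of the stress list held the letters without a difference of 0.5 in both sets. Shown for CHAC1, ATF3 and ASNS, whose levels are described here, are the 250 bases before the start, 5′ to 3′ on the strand of the gene, with the match in capitals. For CHAC1 (chr15:40953221-40953470, plus strand) it lies on the opposite strand, 209 bases before the start. For ATF3 (chr1:212565157-212565406, plus strand) it begins 191 bases and for ASNS (chr7:97872409-97872658, minus strand) 68 bases before the start.
CHAC1: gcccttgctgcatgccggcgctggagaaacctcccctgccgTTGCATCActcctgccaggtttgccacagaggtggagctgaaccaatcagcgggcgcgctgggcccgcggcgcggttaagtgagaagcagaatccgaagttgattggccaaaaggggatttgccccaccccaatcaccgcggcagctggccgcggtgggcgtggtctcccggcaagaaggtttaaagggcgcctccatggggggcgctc
ATF3: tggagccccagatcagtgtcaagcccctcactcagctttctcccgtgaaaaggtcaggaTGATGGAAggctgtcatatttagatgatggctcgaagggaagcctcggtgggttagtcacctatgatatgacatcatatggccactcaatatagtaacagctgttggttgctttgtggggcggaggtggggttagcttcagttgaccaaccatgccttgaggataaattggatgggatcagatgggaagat
ASNS: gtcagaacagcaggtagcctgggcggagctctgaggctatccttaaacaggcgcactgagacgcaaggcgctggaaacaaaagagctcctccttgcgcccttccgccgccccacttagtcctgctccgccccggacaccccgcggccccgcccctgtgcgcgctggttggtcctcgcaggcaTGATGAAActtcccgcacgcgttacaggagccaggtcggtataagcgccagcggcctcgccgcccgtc

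ASNS and CTH led the enzymes of serine, asparagine and proline synthesis. ASNS, asparagine synthetase, was at 9.77 with M and 7.64 with U within set 1, and at 8.53 and 7.58 in set 2. The U arrays were alike and both M arrays were above them, with a mean difference of 1.54 ± 0.43 (SE). CTH, which makes cysteine from cystathionine, was at 7.24 and 5.14 in set 1 and at 5.83 and 5.14 in set 2. PSPH and PSAT1, of the serine pathway, were higher by 0.28 and 0.36 and by 0.29 and 0.19. In contrast PHGDH, the first enzyme of that pathway, had differences of 0.14 and -0.11, and PYCR1, of proline synthesis, of -0.12 and -0.29. The median over the 11 members tested was 0.28 in set 1 and 0.07 in set 2. In both sets 6 members were higher (54.5%, against 23.5% of all genes) and 3 lower (27.3%, against 25.9%).

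The functions that supply amino acids and charge tRNA had medians above 0 in set 1 and just under 0 in set 2. The 9 amino acid transporters tested had a median of 0.30 in set 1 and -0.01 in set 2. Of them 4 were higher in both sets (44.4%, against 23.5% of all genes). SLC7A11, the cystine importer, was at 11.25 with M and 10.41 with U within set 1, and at 10.05 and 9.87 in set 2, so that the groups overlapped. The 17 cytosolic aminoacyl-tRNA synthetases tested had medians of 0.21 and -0.03; 14 were higher in set 1 but 4 in set 2, against 50.9% and 46.6% of all genes. CARS1, the cysteinyl enzyme (0.70 and 0.22), and GARS1, the glycyl enzyme (0.81 and 0.09), were higher in both sets. SARS1, the seryl enzyme, differed by 0.37 and -0.10, and AARS1, the alanyl enzyme, by 0.39 and -0.13. None of the transporters or synthetases had an unadjusted p under 0.05 in the fit without the block.

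Among genes for folding and degradation in the endoplasmic reticulum (ER), 1 member of 21, HERPUD1, had an unadjusted p under 0.05 without the block. HERPUD1, a membrane protein of ER-associated degradation, was at 10.80 with M and 10.19 with U within set 1, and at 10.44 and 10.06 in set 2, and the groups did not overlap. The chaperone HSPA5 (BiP) differed by 0.17 and 0.11, HSP90B1 by 0.17 and -0.12 and CALR by -0.41 and 0.10. The medians of the list were 0.09 and -0.01, with 8 members higher in both sets (38.1%, against 23.5% of all genes) and 3 lower in both. DNAJB9 (0.35 and 0.10) and DNAJC3 (0.09 and 0.35), which are co-chaperones of HSPA5, were among the 8.

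Of 20 autophagy and lysosome genes tested, 10 were higher with M in both sets, 2 were lower in both and 8 differed in opposite directions, with medians of 0.10 and 0.05. MCOLN1, the lysosomal calcium channel, was at 7.02 with M and 6.60 with U within set 1, and at 6.64 and 5.92 in set 2. ATG12 (0.22 and 0.20), ATG5 (0.11 and 0.15) and BECN1 (0.11 and 0.11), which build the autophagosome, differed by similar amounts in the sets. SQSTM1, the cargo receptor p62, differed by 0.14 and 0.05. The lists of 18 NRF2 targets and 12 heat shock proteins had medians of 0.10 and -0.09 and of 0.03 and -0.03, with 3 and 2 members higher in both sets. NQO1, the classical NRF2 target, differed by 0.13 and -0.03.

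NDRG1 was the sole member of the hypoxia and glycolysis list with a difference of at least 0.5 in both sets. This gene, which hypoxia and other stress raise, was at 6.31 with M and 5.46 with U within set 1, and at 5.83 and 4.80 in set 2. The ODN arrays of NDRG1 lay at 6.34 and 4.38, beyond the M and U arrays on either side. HK2, hexokinase 2, was higher by 1.23 in set 1 and differed by -0.31 in set 2. VEGFA, the angiogenic growth factor, differed by 0.38 and 0.00. The list of 17 genes had medians of 0.15 and -0.02.

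Of the immediate early and AP-1 genes, FOSB and NR4A1 were higher by at least 0.5 in both sets. FOSB, an AP-1 subunit, was at 5.49 with M and 4.71 with U within set 1, and at 5.93 and 4.95 in set 2. NR4A1, an orphan nuclear receptor, was at 6.68 and 5.61 and at 6.06 and 5.47. Their groups did not overlap, but FOSB passed the filter only through its M arrays (mean of U 4.83). JUN was higher by 0.64 and 0.16 and DUSP1, a MAPK phosphatase, by 0.52 and 0.11, whereas FOSL1, the AP-1 subunit FRA-1, differed by 1.33 and 0.01. FOS lay at 3.88 and 4.37 in set 1 and at 7.36 and 7.46 in set 2, so that the sets differed far more than M and U. The list of 17 genes had medians of 0.20 and 0.01. In both sets 7 were higher (41.2%, against 23.5% of all genes) and 4 lower (23.5%, against 25.9%).

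The EGFR ligands and MAPK feedback genes had medians of 0.28 and -0.06 over 16 members. The feedback genes DUSP5 (0.85 and -0.27), SPRY4 (0.84 and -0.28), DUSP6 (0.67 and -0.38) and DUSP4 (0.55 and -0.24) were higher with M in set 1 and lower in set 2. Of the ligands, TGFA (0.41 and 0.23) and EREG (0.29 and 0.52) were higher in both sets, with levels that differed by more between sets than between M and U. EGFR lay at 14.01 to 14.25 in all 4 arrays.

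Of 14 genes of NF-kB subunits, inhibitors and targets, 6 were higher in both sets (42.9%, against 23.5% of all genes). In the other direction 1 was lower in both (7.14%, against 25.9%), and the medians were 0.13 and 0.07. RELB, a subunit of the alternative pathway, was at 6.17 with M and 4.75 with U within set 1. In set 2 it was at 5.77 and 5.13. The mean difference of RELB was 1.03 ± 0.22 (SE), but it passed the filter only through its M arrays (mean of U 4.94). NFKBIB and NFKBIE, which hold NF-kB in the cytoplasm, were higher by 0.40 and 0.25 and by 0.13 and 0.15. TNFAIP2, a target gene, was lower, at 8.04 with M and 8.80 with U within set 1 and at 8.30 and 8.69 in set 2. RELA, the subunit of the classical pathway, differed by 0.19 and -0.19. Of the cytokines and chemokines, 4 of 17 named genes passed the filter, and CXCL8 was at 6.08 and 4.93 and at 5.05 and 4.60. TNF, CXCL1, CCL20 and CXCL10 were at 1.82 to 2.60 in all 4 arrays.

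The lists of DNA sensing and interferon had medians close to 0, and TLR9 itself was dim. TLR9 was at 2.33 to 2.34 and ZBP1 at 2.69 to 2.77 in the 4 arrays, and CGAS at 3.82 to 4.11. The other sensors and adaptors under the filter were less even. STING1, the adaptor of CGAS, was at 2.90 with M and 4.31 with U within set 1, and at 4.74 and 5.01 in set 2. AIM2, an inflammasome sensor of DNA, was at 2.97 and 3.76 and at 4.22 and 5.88. Both were thus lower with M in each set, at levels that ran from the floor up to 5.88, and were not tested. In contrast UNC93B1 was at 4.87 with M and 4.28 with U within set 1, and at 4.21 and 4.53 in set 2. IKBKE was at 5.01 and 5.35 and at 4.35 and 4.21. These genes, also under the filter, thus differed in opposite directions in the sets. Of 21 named sensing genes 14 were tested, with medians of -0.04 and 0.02, and 2 were higher in both sets and 2 lower in both. MYD88, the adaptor of TLR9, differed by -0.27 and -0.08. IFI16, a nuclear DNA sensor, was at 4.14 with M and 6.16 with U within set 1 but at 7.41 and 7.13 in set 2.

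Of 32 named interferon-stimulated genes 13 passed the filter. Their medians were -0.12 and -0.04, with 3 higher in both sets and 5 lower in both. ISG15, a ubiquitin-like protein, differed by 0.12 and -0.04, and IFIT2 by -0.12 and -0.06. SAMD9 was lower by 1.46 in set 1 and differed by 0.19 in set 2. Of the 19 dim genes, RSAD2, IFI27, IFI44L and MX2 stayed between 1.92 and 2.99. RIGI, the RNA sensor also called RIG-I, had a mean just under the filter and was at 5.40 with M and 4.65 with U within set 1 and at 5.30 and 4.51 in set 2. It was not tested and lay at 5.31 and 5.24 in the ODN arrays.

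Of 34 mitosis genes tested, 23 (67.6%, against 25.9% of all genes) were lower with M in both sets, 1, BUB3, was higher in both and 10 differed in opposite directions. The medians were -0.15 and -0.06. For 13 of the 34 both M arrays lay below both U arrays, which held for 11.7% of all genes. CCNA2, cyclin A2, was at 10.46 with M and 10.90 with U within set 1, and at 10.49 and 10.63 in set 2. KIF11, the spindle motor Eg5 (-0.52 and -0.10), FOXM1, a transcription factor for mitotic genes (-0.23 and -0.15), and MKI67, the proliferation antigen Ki-67 (-0.23 and -0.08), were lower in both sets without overlap of the groups. CDK1, which drives entry into mitosis, differed by -0.09 and 0.10. No member had an unadjusted p under 0.05 in the fit without the block, and 0 were lower by 0.5 in both sets. The median of the mean differences was -0.10, and with each array left out in turn it ran from -0.19 without U of set 2 to -0.019 without U of set 1. In Hs578T their medians were -0.16 and -0.13, against -0.03 and 0.00 over the same 9349 genes. There 28 of the 34 were lower with M in both sets. The share of all genes lower in both sets of Hs578T is not given here, so this count has no background.

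Of 33 replication genes tested, 15 (45.5%, against 25.9% of all genes) were lower in both sets and 0 higher in both. The other 18 differed in opposite directions, and the medians were -0.09 and -0.03. MCM3, of the replicative helicase, was at 10.43 with M and 10.74 with U within set 1, and at 10.67 and 10.88 in set 2. MCM4 (-0.23 and -0.10) and MCM2 (-0.17 and -0.11) of the same complex were lower in both sets, and PCNA, the sliding clamp, differed by -0.33 and 0.07. CDKN1A (p21), an inhibitor of the cell cycle, was higher, at 7.69 with M and 7.05 with U within set 1 and at 7.67 and 7.42 in set 2. GADD45A, a growth arrest gene, differed by 1.27 and 0.21. The 16 genes of the p53 and G1 list had medians of -0.10 and 0.02, with 5 higher and 5 lower in both sets.

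The BCL2 family had medians of 0.01 and -0.11 over 10 members, with 2 higher and 4 lower in both sets. PMAIP1 (NOXA), a BH3-only protein that promotes cell death, was higher by 1.05 and 0.20, and BAK1, an effector of cell death, differed by -0.22 and -0.42. The 10 TGF-beta and YAP targets had medians of -0.05 and 0.03, with 4 higher and 4 lower in both sets. ID1 and ID3, inhibitors of transcription factors, were lower in both sets, ID1 by -1.13 and -0.37 and ID3 by -0.50 and -0.22. CCN1, a matricellular protein and YAP target, was higher by 0.60 and 0.24. These lists thus held members on either side of 0.

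Epithelial markers were lower with M in both sets for 10 of the 21 tested (47.6%, against 25.9% of all genes), and 0 were higher in both. For 8 of the 21 both M arrays lay below both U arrays, against 11.7% of all genes. KRT19, a simple keratin, was at 13.15 with M and 13.89 with U within set 1, and at 13.82 and 14.00 in set 2. CDH3 (P-cadherin, -0.28 and -0.20), CLDN4 (a claudin, -0.24 and -0.21) and ESRP1 (an epithelial splicing regulator, -0.39 and -0.15) were lower in both sets. ELF3, an epithelial transcription factor, was lower by 1.77 in set 1 and differed by 0.02 in set 2. EPCAM differed by -0.17 and 0.23. The median of the list was -0.17 in set 1 and -0.12 in set 2. FOXA1, a luminal transcription factor, was at 5.36 with M and 7.49 with U within set 1, and at 7.34 and 7.89 in set 2. A second FOXA1 probe set gave differences of -1.35 and -0.19. Of 24 mesenchymal markers 6 were tested, with medians of -0.13 and 0.05. COL1A1, a fibrillar collagen chain, was higher in both sets, at 6.49 and 6.05 and at 6.51 and 5.90.

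Of 16 sterol genes 8 were lower with M in both sets, 0 were higher in both and 8 differed in opposite directions, with medians of -0.08 and -0.02. SREBF2, the transcription factor of sterol synthesis, was at 5.95 with M and 6.45 with U within set 1 and at 6.10 and 6.31 in set 2. INSIG1, which retains that factor in the ER (-0.25 and -0.10), and MVD, of the mevalonate pathway (-0.07 and -0.43), were lower in both sets. FASN, fatty acid synthase, differed by -0.49 and -0.06. The 8 fatty acid genes had medians of -0.15 and -0.01, with 1 higher and 3 lower in both sets. SCD, the stearoyl-CoA desaturase, was lower by 1.27 in set 1 and differed by 0.15 in set 2.

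Genes that read or write DNA methylation differed little. The 16 tested had medians of -0.15 and 0.04, with 2 higher and 4 lower in both sets. The methyltransferase DNMT1 was at 11.16 to 11.27 in the 4 arrays. ZBTB33 (Kaiso), a protein that binds methylated CpG, was at 11.06 with M and 11.30 with U within set 1, and at 11.08 and 11.29 in set 2. UHRF1 (-0.26 and -0.07) and MBD2 (-0.27 and -0.02), other readers of methylated CpG, were lower in both sets. MBD1 was higher in both, by 0.45 and 0.04.

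Genes of constant cell functions set the scale of differences at high levels. The 33 ribosomal protein genes tested had medians of 0.04 and -0.02. Of them, 24 were higher in set 1 and 6 in set 2. The 27 genes of the respiratory chain and ATP synthase had medians of 0.05 and 0.02. In both sets 12 were higher (44.4%, against 23.5% of all genes) and 2 lower (7.41%, against 25.9%). The 24 proteasome genes had medians of 0.08 and -0.02, and the 14 housekeeping genes of 0.02 and -0.03. The spread of differences over genes fell with level, from 0.45 in set 1 and 0.34 in set 2 for the 1975 genes at 5 to 7 to 0.15 and 0.08 for the 307 genes at 13 or above.

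Some of the genes with a difference of at least 0.5 in both sets belong to none of these functions. MAOA, the mitochondrial monoamine oxidase A, was at 8.22 with M and 6.44 with U within set 1, and at 7.22 and 6.24 in set 2, and its other probe sets differed by 0.69 and 0.33 and by 0.76 and 0.12. ZNF793, a zinc finger gene, was at 6.19 and 5.20 and at 6.11 and 4.93, with a mean difference of 1.09 ± 0.15 (SE). ASRGL1, an asparaginase, was at 5.89 and 5.12 and at 5.94 and 5.00, but a second probe set gave 0.55 and -0.52. TP53INP2, an autophagy protein (1.13 and 0.71), and ZDHHC14, a palmitoyltransferase (0.80 and 0.70), also separated M from U. IRS2, an insulin receptor substrate (1.18 and 0.60), RUNX3, a transcription factor (0.68 and 0.87), and ID4, an inhibitor of transcription factors (0.75 and 1.06), were higher in both sets. A second RUNX3 probe set gave -0.03 and 0.86. For ID4 and IRS2 the sets differed by more than M and U, so the groups overlapped. ZDHHC14 and ID4 passed the filter only through their M arrays (means of U 4.91 and 4.79).

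Lower by at least 0.5 in both sets were 15 genes. GABBR2, a GABA receptor subunit, was at 6.63 with M and 7.44 with U within set 1, and at 5.47 and 6.23 in set 2, and a second probe set differed by -0.76 and 0.31. CASP10, an initiator caspase, was at 4.20 and 6.10 and at 5.52 and 6.19. PIGN, an enzyme of GPI anchor synthesis (-0.68 and -0.90), REPS2, an endocytic adaptor (-0.83 and -0.64), and the zinc finger genes ZNF554 (-0.70 and -0.56) and ZNF141 (-0.78 and -0.57) followed. A second ZNF141 probe set gave -0.11 and 1.00, and a second REPS2 probe set -0.64 and 0.26. CASP10, PIGN, REPS2, ZNF554 and ZNF141 passed the filter only through their U arrays (means of M 4.86, 4.69, 4.88, 4.81 and 4.67). For these a lower mean with M had to be present. Over all 51 genes past 0.5 in both sets, 13 have another probe set with a mean of at least 5, and 8 of these 17 probe sets had the same direction in both sets.

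Many of the largest differences within a set were not shared. Those of CHAC1, SESN2 and ATF3 were shared. Outside the stress list so were those of MAOA (1.78 and 0.97), RELB (1.42 and 0.64), FOXA1 (-2.12 and -0.55) and CASP10 (-1.91 and -0.67). STC2 of the stress list (1.49 and 0.03) was not. In set 1 the largest lower values, chosen after they were seen, were CFI, complement factor I (-3.03, and -0.22 in set 2), and MXRA5, a matrix protein (-2.17 and 0.03). CALB2, calretinin, was higher by 1.77 in set 1 and differed by -0.02 in set 2. In set 2 CHAC1 and SESN2 came first, followed by MACC1, a colon cancer-associated gene, which differed by -1.26 in set 1 and 1.56 in set 2, and by LTBP2, a TGF-beta binding protein (0.01 and 1.55). The lowest in set 2 were CENPBD2P, a pseudogene (-0.06 and -1.52), and CAVIN3, a caveolar protein (-0.27 and -1.47).

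The lone ODN arrays of BT-20, which the labels give no set number but whose array names bear the date of set 2, did not lie at the level of U for most of the stress genes. CHAC1 was at 4.87 with ODN2006 and 5.45 with its control, SESN2 at 6.23 and 6.76, and ATF3 at 7.66 and 7.65. PPP1R15A was at 8.58 and 8.54, above the M array of set 2 (8.35), and NUPR1 at 8.68 and 9.19. DDIT3 was at 6.71 and 7.14. ASNS was at 7.75 and 8.17, and CTH at 4.99 and 5.79. CHAC1 with ODN2006 was thus between the U arrays, whereas SESN2 and ATF3 were between U and M. These genes were chosen for U arrays below the M arrays, so that their U levels were in part fixed by that choice. Among all genes tested, 26.5% lay above both U arrays with ODN2006 and 32.6% with its control. With 1 array each there is no test.

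The same oligonucleotides gave other differences in Hs578T, where CHAC1, SESN2, ASNS and CTH had higher levels (8.53, 8.94, 12.23 and 9.11 on average over the M and U arrays). In Hs578T, CHAC1 differed by -0.08 in set 1 and 0.81 in set 2, SESN2 by -0.26 and 0.74 and ATF3 by -0.69 and 1.03. PPP1R15A (-0.49 and -0.36), DDIT3 (-0.58 and -0.33) and NUPR1 (-0.02 and -0.56) were lower in both sets of that line. The 16 stress regulators had medians of -0.13 and -0.16 in Hs578T, against -0.03 and 0.00 over the genes tested in BT-20. Of the 16, 3 were higher and 8 lower in both sets, counts without the share over all genes of Hs578T beside them.

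When M minus U was tested between BT-20 and Hs578T in the 8 arrays (10285 genes), 0 genes passed at an adjusted p under 0.05 (limma, smallest adjusted p = 0.999), and 248 (2.41%) had an unadjusted p under 0.05. With the set within line as a block, that number was 723. Without that block, 5 of the 16 stress regulators had an unadjusted p under 0.05: SESN2, DDIT3, PPP1R15A, NUPR1 and DDIT4. The difference between lines was 1.97 ± 0.47 (SE) for SESN2, 1.43 ± 0.31 for DDIT3, 1.59 ± 0.44 for PPP1R15A and 1.59 ± 0.67 for CHAC1. SESN2, DDIT3, PPP1R15A, NUPR1 and CHAC1 are among the genes picked out for their differences in BT-20, so that their BT-20 values were in part fixed by that choice. The mitosis list had 0 such genes at an unadjusted p under 0.05, also without the block.

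**Figure D3:**
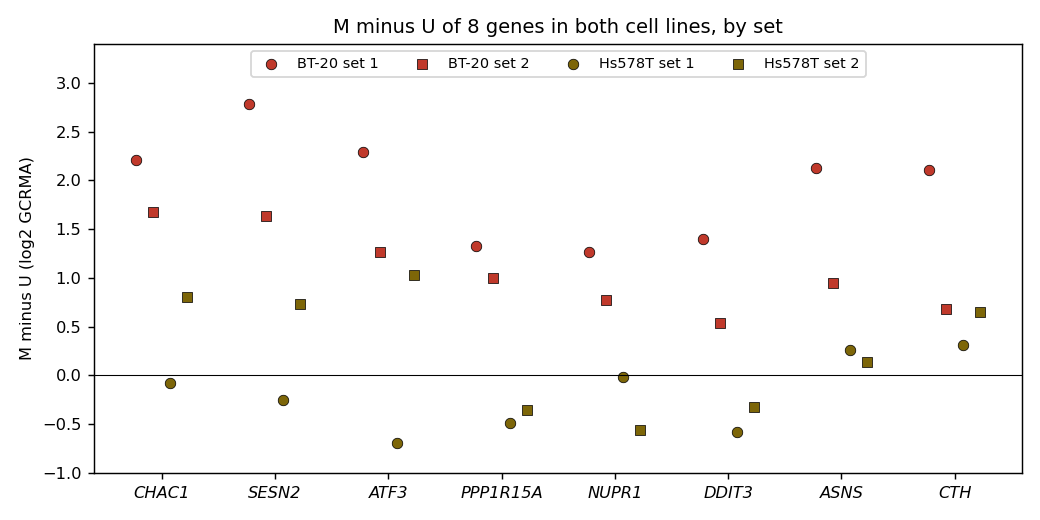
M minus U (log2 GCRMA, vertical axis) of 8 genes in BT-20 (red) and Hs578T (brown), circles for set 1 and squares for set 2. The genes were chosen for differences of at least 0.5 in both BT-20 sets, so that the BT-20 points lie above 0.5 by choice; those of Hs578T lie between -0.69 and 1.03.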

How the data were processed

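Total RNA of 12 cultures was labelled with biotin and hybridised to 1-colour Affymetrix HG-U133 Plus 2.0 arrays. The authors deposited log2 values per probe set, computed by GCRMA in R 2.4 (a background correction that uses the probes' base composition, quantile normalisation and a summary over probes). Whether all arrays were normalised together is not given in the sources used here. GCRMA pulls dim probe sets to a common floor, which understates differences of genes near it.

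Of 54675 probe sets, 41097 were paired with 1 gene, 1801 with several and 11777 with none; those of 1 gene were used, 41043 named through the gene ID and 54 by the symbol of the platform table. Of each gene the probe set with the highest mean over the 12 arrays was kept (19775 genes). The 9349 genes with a mean of at least 5 over the 4 BT-20 arrays were tested with limma 3.58.1 in R 4.3.3 (lmFit, eBayes, 2 residual degrees of freedom, Benjamini-Hochberg, threshold 0.05); other values were computed in Python 3.11.15 with pandas 2.3.3 and scipy 1.17.1. The fit was also run on simulated data with independent noise in each array. Those data had no effect shared within a set, so they do not show how the fit performs on these arrays. The labels call the arrays biological replicates. Deviations from the group means correlated between M and U of the same set with r = 0.611. The array names in the labels bear 1 date for each set, so the set numbers were taken to pair the arrays. The fit without a block is reported, with blocked values beside the counts over all genes and the SE of CHAC1.

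The members and lists were chosen with earlier results of these data known. The 30 gene lists cover 651 entries; members without a name in the platform table were left out. The genes named are CHAC1, the 15 in each direction with the largest smaller difference of the 2 sets (some of the lower ones by count only), up to 6 members of each list with the smallest p, any member past 0.5 in both sets and the marker genes. Other list members are named for their role and further genes after their values were seen. Alternatives covered the filter, a floor, the scaling, the choice of probe set, the block, the arrays in the fit and leaving out each array. Motifs were searched in RefSeq promoter sequences. The sequence of the oligonucleotide and the gene that it comes from are not reported here.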

Additional observations from a re-analysis of the deposited data

How the results depend on the processing

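No gene passed an adjusted p of 0.05 under any of the alternatives run, and the smallest adjusted p of M against U was 0.564, without M of set 2. The set numbers as a block (the paired fit) raised the genes at an unadjusted p under 0.05 from 56 to 218 higher and from 52 to 194 lower, and those of the difference between lines from 248 to 723. Both lines in 1 fit with the block gave 223 and 222, no filter on dim genes 271 and 270 (568 between lines), and a trended robust variance 37 and 25. The higher ones were 36 with a mean of at least 6 and 91 with a level of 5 in 2 of 8 arrays. Genes past 0.5 in both sets numbered 36 higher and 15 lower, against 79 and 40 without a filter, 16 and 5 with a mean of at least 6, 64 and 26 with a level of 5 in 2 of 8 arrays, 19 and 5 with probe sets averaged, and 9 lower with values under 5 raised to 5; this count is undefined without an array. Of the list medians of the mean difference, that of mesenchymal markers moved from -0.09 to -0.24 with probe sets averaged. That of the 3 luminal genes (-0.25) was -0.0049 without a filter, -0.083 with probe sets averaged, and -0.27 with arrays centred on the median or on the mean of housekeeping genes, the latter chosen after seeing the data. Leaving out 1 array gave 36 to 287 higher and 20 to 319 lower genes at an unadjusted p under 0.05, the highest numbers without M of set 2 and the lowest without U of set 2 (higher) and U of set 1 (lower), and 196 to 663 between lines. List medians then ran from 0.0063 to 0.17 for amino acid synthesis, -0.10 to 0.32 for amino acid transporters, -0.096 to 0.17 for ER folding, -0.071 to 0.056 for heat shock proteins, -0.051 to 0.17 for hypoxia and glycolysis, -0.34 to 0.18 for fatty acid synthesis, 0.044 to 0.10 for NF-kB, -0.17 to 0.38 for cytokines, -0.0002 to 0.30 for AP-1 and immediate early genes, -0.099 to 0.26 for EGFR ligands and MAPK feedback, -0.37 to 0.27 for TGF-beta and YAP targets, -0.12 to 0.045 for interferon-stimulated genes, -0.16 to 0.080 for DNA methylation, -0.22 to 0.068 for replication, -0.19 to -0.019 for mitosis, -0.19 to 0.074 for p53 targets and G1 control, -0.12 to 0.044 for BCL2 family, -0.047 to 0.057 for cytosolic ribosomal proteins, -0.055 to 0.071 for respiratory chain and ATP synthase, -0.092 to 0.048 for housekeeping genes, -0.20 to 0.15 for mesenchymal markers, -0.33 to -0.17 for luminal genes. The differences of these genes took both signs: -0.035 to 0.30 for AARS1, -0.017 to 0.52 for ATF4, -0.45 to 2.20 for CALB2, -0.41 to 0.096 for CALR, -0.45 to 1.29 for CCN1, -0.31 to 0.021 for CDH1, -0.13 to 0.15 for CDK1, -3.92 to 0.67 for CFI, -0.066 to 0.044 for DNMT1, -0.18 to 0.49 for DUSP4, -0.50 to 1.08 for DUSP5, -0.41 to 0.70 for DUSP6, -0.16 to 0.069 for EGFR, -0.13 to 0.19 for EPCAM, -0.084 to 0.89 for EREG, -2.04 to 1.45 for FOS, -0.25 to 1.59 for FOSL1, -0.23 to 1.71 for GADD45A, -0.085 to 0.14 for HSP90B1, -0.11 to 0.39 for HSPA5, -0.55 to 2.36 for ID4, -2.50 to 0.77 for IFI16, -0.024 to 1.81 for IRS2, -0.20 to 0.27 for ISG15, -0.34 to 0.49 for JDP2, -0.58 to 0.87 for MACC1, -0.29 to 0.021 for MCM2, -2.89 to 0.75 for MXRA5, -0.47 to 0.11 for MYD88, -0.33 to 0.069 for PCNA, -0.19 to 0.22 for PHGDH, -0.067 to 0.54 for PSAT1, -0.35 to 0.35 for RELA, -1.39 to 0.12 for SAMD9, -0.11 to 0.38 for SARS1, -1.73 to 0.62 for SCD, -0.095 to 1.11 for SLC7A11, -0.055 to 0.61 for SPRY4, -0.057 to 1.58 for STC2, -0.28 to 0.92 for TGFA, -0.23 to 0.025 for VIM. Of other alternatives, the sign of the mean difference changed with centring on the median of housekeeping genes (-0.014 for CDK1, -0.0058 for PHGDH), with centring on their mean (-0.012 for CDK1, -0.0033 for PHGDH), with probe sets averaged (-0.0062 for JDP2, 0.034 for RELA). For ATF4-CHOP regulators the median without 1 array was 0.13 to 0.82, lowest without M of set 1. Without 1 array, M and U no longer hold the same sets, so the values without 1 array, here and above, also hold the difference between sets. A change of sign among them is therefore not a change of direction within a set. ID4 was higher with M by 0.75 and 1.06 within the sets, and IRS2 by 1.18 and 0.60. How much of each shift comes from the sets was not tested.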

Other observations

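ESR1, the oestrogen receptor that BT-20 is known to lack, had a mean under 5 and was not tested. It was at 3.19 with M and 4.72 with U within set 1, and at 3.95 and 5.64 in set 2. The ODN2006 array was at 5.38 and its control at 6.13. Both M arrays lay below both U arrays, as for 11.7% of the genes tested, and below the ODN arrays. The values are those of 1 probe set with a mean under the filter, and other probe sets of ESR1 were not compared. Whether ESR1 was expressed with U and not with M cannot be told from them.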
